A study of Mus musculus with 48 samples.

Results

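The transforming growth factor beta (TGF-beta) pathway was described through 10 genes, namely the 3 ligands (Tgfb1, Tgfb2 and Tgfb3), the 3 receptors (Tgfbr1, Tgfbr2 and Tgfbr3) and 4 of the Smad proteins that carry the signal (Smad2, Smad3, Smad4 and Smad7). They were chosen by name out of the 34932 genes whose transcripts were quantified in 48 RNA-seq libraries, and 10 of 10 were found. The libraries came from a study of the transcriptional co-activator Yap in T cells, in which B16F10 melanoma, a transplantable tumor line of C57BL/6J mice, was grown in wild-type (WT) mice and in Yap-cKO mice. Yap-cKO mice carried Yap-loxP/loxP, LSL-EYFP and CD4-Cre, so Cre was driven by the Cd4 promoter and Yap was deleted in cells of the T lineage, while the WT animals were littermates. CD4+ T cells, CD8+ T cells and the remaining CD45+ CD4- CD8- leukocytes (called CD45+ cells here) were sorted live from the tumor (tumor-infiltrating lymphocytes, TILs) and from the tumor-draining lymph node (TDLN). This gave 12 groups of 4 libraries each, and the CD45+ cells were not the cells that Cre was meant to reach.

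In this pathway a secreted ligand dimer, held latent until it is released, binds the kinase receptor TGFBR2, which recruits and phosphorylates TGFBR1. TGFBR1 then phosphorylates SMAD2 and SMAD3, which join SMAD4 and enter the nucleus, whereas SMAD7 is an inhibitory Smad that is itself a target gene of the pathway. The pathway is known for restraining T-cell activation and for inducing Foxp3+ regulatory T cells, and tumor cells, fibroblasts, endothelial cells, platelets and myeloid cells are known sources of the ligands.

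In mouse genome build GRCm38, Tgfb1 lies at chr7:25687002-25705077, Tgfb2 at chr1:186622792-186705989, Tgfb3 at chr12:86056745-86079041, Tgfbr1 at chr4:47353222-47414931, Tgfbr2 at chr9:116084293-116175360, Tgfbr3 at chr5:107106570-107289629 and Smad3 at chr9:63646767-63757994. Every value below sums all annotated transcripts of a gene, untranslated and coding exons together. The promoters of Tgfb1, Tgfb2 and Tgfbr2 are shown because these were the members whose levels differed most in kind between the groups: a ligand highest in CD45+ cells, a ligand highest in WT T-cell TILs and a receptor highest in every TDLN group. Each is the 250 bases before the RefSeq transcript start on GRCm38.p6 in the direction of the gene, at chr7:25686752-25687001 (plus strand), chr1:186705990-186706239 (minus strand) and chr9:116175364-116175613 (minus strand), and capitals mark matches to TATAAA (the TATA box), GGGCGG (the GC box), CACGTG (the E-box), TGACGTCA (the cAMP response element), TGACTCA (the AP-1 site), GTCTAGAC (the palindromic Smad element) or GGAATG (the TEAD element) on either strand, none of which overlapped in these windows.
Tgfb1: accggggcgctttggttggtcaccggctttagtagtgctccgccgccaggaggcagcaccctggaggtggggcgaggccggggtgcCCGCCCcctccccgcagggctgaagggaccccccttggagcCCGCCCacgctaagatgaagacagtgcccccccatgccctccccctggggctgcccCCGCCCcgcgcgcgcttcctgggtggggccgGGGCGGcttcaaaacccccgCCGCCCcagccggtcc
Tgfb2: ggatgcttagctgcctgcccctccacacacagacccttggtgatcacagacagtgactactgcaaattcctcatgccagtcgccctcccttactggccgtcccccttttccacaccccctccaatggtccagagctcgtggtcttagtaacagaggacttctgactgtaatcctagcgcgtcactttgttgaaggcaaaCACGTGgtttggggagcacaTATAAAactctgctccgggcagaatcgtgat
Tgfbr2: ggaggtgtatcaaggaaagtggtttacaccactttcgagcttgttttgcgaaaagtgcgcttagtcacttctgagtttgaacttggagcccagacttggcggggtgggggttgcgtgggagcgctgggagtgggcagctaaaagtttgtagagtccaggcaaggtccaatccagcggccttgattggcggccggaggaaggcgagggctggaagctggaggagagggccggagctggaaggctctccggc
The Tgfb1 window was 75.2% G+C, above the median of 52.4% over 32851 such windows, and held 5 matches to GGGCGG, a motif in 32.7% of them. The Tgfb2 window was 53.6% G+C and held CACGTG, present in 6.02% of windows, and TATAAA, present in 12.4%, the latter 31 bases before the start. The Tgfbr2 window was 58.4% G+C and held none of these 7 motifs. The 5-base motif CAGAC was also searched and not capitalised, since it occurred in 42.2% of all windows. Windows were also read for Smad3 and Tgfbr1. The table of promoters had no entry for Tgfb3, Tgfbr3, Smad2, Smad4 and Smad7.

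The libraries held 12656302 to 24213689 estimated counts on annotated genes. Thus 3 counts correspond to 0.124 to 0.237 CPM, the read count scaled to the library size, before the normalisation applied to the levels below. Cd4 averaged 318.6 to 1014 CPM in the CD4+ groups and at most 3.62 CPM in the CD8+ groups, whereas Cd8a averaged 391.4 to 979 CPM in the CD8+ groups and at most 4.58 CPM in the CD4+ groups. A list of 15 T-lineage genes, all detected in every group, summed to 8002 to 18210 CPM in the 16 T-cell libraries from TDLN, to 2049 to 7942 CPM in the 8 WT T-cell TIL libraries and to 8456 to 13780 CPM in the 8 Yap-cKO T-cell TIL libraries. A list of 11 melanoma genes ran the other way, at 12.4 to 24.97 CPM in T cells from TDLN, 3983 to 17240 CPM in WT T-cell TILs and 48.98 to 2718 CPM in Yap-cKO T-cell TILs. The 8 WT T-cell TIL libraries thus stood apart, and the fits of T cells were repeated with the counts of the 15 T-lineage genes as library size. That scaling could not serve the comparisons of CD45+ cells with T cells. That scaling moved the median log2 fold change of all genes between Yap-cKO and WT from 0.14 to -1.09 in CD4+ TILs and from 0.08 to -1.08 in CD8+ TILs. Between TILs and TDLN it moved the median from -0.03 to 1.55 in WT CD4+ cells, from -0.02 to 1.59 in WT CD8+ cells, from -0.04 to 0.23 in Yap-cKO CD4+ cells and from 0.02 to 0.39 in Yap-cKO CD8+ cells. Fewer cells of a type and less RNA per cell cannot be told apart in bulk libraries, and nothing in the labels says that replicates came from separate mice, so p-values measure only the spread between these libraries.

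The ligands differed in which sorted cells held their RNA. Tgfb1 encodes the main TGF-beta of immune cells. In CD45+ cells from TDLN it was at 410.4, 184.8, 445.9 and 334.8 CPM in the 4 WT libraries and at 247.2, 215.9, 303.5 and 413.6 CPM in the 4 Yap-cKO libraries. The 16 T-cell libraries from TDLN ran lower, with group means in TPM, a transcript count corrected for length, of 87.9 to 105, against 237 to 248 TPM in the CD45+ groups. Over both genotypes Tgfb1 was higher in CD45+ cells than in T cells by 1.37 ± 0.179 (log2 fold change ± SE, adjusted p = 7.33e-07, edgeR's quasi-likelihood test) in TDLN and by 1.90 ± 0.324 (adjusted p = 2.84e-05) in TILs. In WT CD4+ TILs it was at 16.4, 70.7, 115 and 63.8 CPM, and in Yap-cKO CD4+ TILs at 235.8, 123.8, 235 and 52.8 CPM, so the groups overlapped. That difference was 1.27 ± 0.582 and missed the threshold (adjusted p = 0.207), and it was 0.43 under the T-lineage scaling. In CD8+ TILs the difference between genotypes was 0.65 ± 0.454 (adjusted p = 0.325), and it turned to -0.33 under the T-lineage scaling. Among the 12 groups in order of mean level, every group overlapped with its neighbours.

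**Figure D1:**
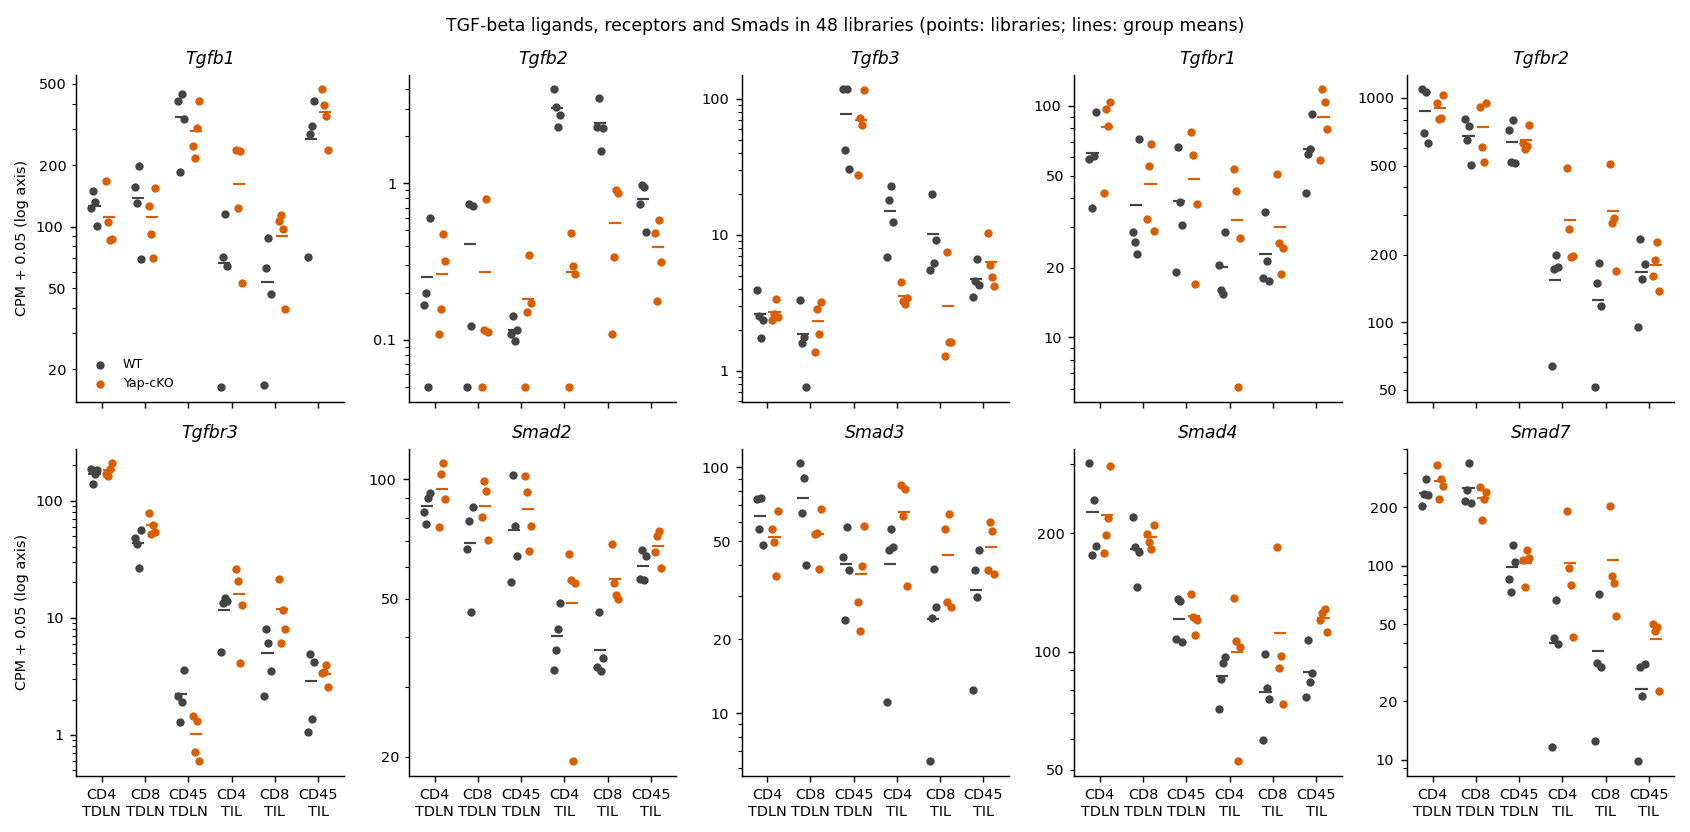
Level of each of the 10 genes in each of the 48 libraries, as normalised CPM plus 0.05 on a log axis, for 12 groups of 4 libraries (dark, WT; orange, Yap-cKO). Points are libraries and lines are group means. Tgfb2 lies under 1 CPM except in the 8 WT T-cell TIL libraries, Tgfb3 is highest in CD45+ cells from TDLN, and Tgfbr2 in all 24 TDLN libraries lies near or above the highest TIL library.

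Tgfb2, a ligand of mesenchymal and epithelial tissue, was nearly absent from these sorts outside WT T-cell TILs. It was at 3.94, 3.04, 2.26 and 2.69 CPM in WT CD4+ TILs (73, 65, 45 and 55 counts) and at 0, 0.433, 0.245 and 0.211 CPM in Yap-cKO CD4+ TILs (0, 8, 4 and 4 counts). In CD8+ TILs it was at 2.24, 3.48, 1.55 and 2.20 CPM in WT and at 0.059, 0.286, 0.860 and 0.818 CPM in Yap-cKO libraries. In each T-cell population the lowest WT library lay above the highest Yap-cKO library. All 24 TDLN libraries lay between 0 and 0.749 CPM, with at most 16 counts, and the CD45+ TIL libraries between 0.126 and 0.932 CPM. In order of mean level, the WT CD4+ and WT CD8+ TIL groups overlapped with each other and were separated from the group that followed. Even there Tgfb2 was a rare transcript, with a mean of at most 2.27 TPM in any TIL group.

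Tgfb3, the third ligand, was high in 2 separate sets of libraries. In CD45+ cells from TDLN it was at 117, 41.6, 117 and 30.5 CPM in WT and at 27.2, 72.2, 64.1 and 116 CPM in Yap-cKO libraries, whereas the 16 T-cell libraries from TDLN lay between 0.716 and 3.87 CPM. The difference between the CD45+ cells and the T cells of the lymph node was 4.95 ± 0.281 (30.9-fold, adjusted p = 4.11e-13). In CD45+ cells from tumors Tgfb3 fell to 3.46 to 10.3 CPM, lower than in TDLN by 16.6-fold in WT (adjusted p = 1.23e-04) with a log2 difference of -3.54 ± 0.445 in Yap-cKO mice (adjusted p = 5.53e-05). A list of 7 B-cell genes fell between the same libraries, from 8459 to 10070 CPM in the 8 from TDLN to 220.3 to 1827 CPM in the 8 from tumors, with 7 of 7 genes detected in each CD45+ group, and its part in the result was not tested. The other set was WT T-cell TILs. There Tgfb3 was at 6.85, 18.03, 22.6 and 12.3 CPM in CD4+ and at 5.45, 19.8, 6.15 and 9.12 CPM in CD8+ libraries. The Yap-cKO libraries were at 4.47, 3.19, 3.07 and 3.38 CPM in CD4+ and at 1.25, 7.43, 1.57 and 1.58 CPM in CD8+ TILs. The CD4+ genotypes did not overlap, whereas the CD8+ genotypes did, through replicate 2 of Yap-cKO.

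Of the receptors, Tgfbr2, which encodes the ligand-binding kinase receptor, was the member with the plainest order between tissues. It ranged from 504.8 to 1092 CPM over the 24 TDLN libraries, with a median of 735.2, and from 51.6 to 509.3 CPM over the 24 TIL libraries, with a median of 182.9. Per length it was also the most abundant of the 3 receptors, at 157.9 to 272.7 TPM in the TDLN groups and 34.9 to 92.1 TPM in the TIL groups. In WT CD4+ TILs it was at 63.7, 174, 200.1 and 177 CPM, and in Yap-cKO CD4+ TILs at 488, 261, 196 and 197 CPM. In WT CD8+ TILs it was at 51.6, 149, 184 and 119 CPM, and in Yap-cKO CD8+ TILs at 509, 277, 293 and 169 CPM. The genotypes overlapped in each population. CD45+ cells differed from T cells by -0.33 ± 0.138 in TDLN (adjusted p = 0.0543) and by -0.22 in TILs, and neither was called.

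Tgfbr3, which encodes betaglycan, a co-receptor that presents ligand to TGFBR2, was by contrast a T-cell transcript in the lymph node. It was at 186.1, 138.9, 167.2 and 181 CPM in WT CD4+ cells and at 167.6, 163.6, 185.6 and 207.5 CPM in Yap-cKO CD4+ cells from TDLN. CD8+ cells from TDLN were at 48.01, 42.5, 26.8 and 56.4 CPM in WT and at 78.1, 51.9, 61.6 and 54.4 CPM in Yap-cKO mice. CD45+ cells from TDLN lay between 0.549 and 3.502 CPM. These 3 cell types did not overlap. Tgfbr3 was 67.2-fold lower in CD45+ cells than in T cells of the lymph node (adjusted p = 7.56e-16), and higher in CD4+ than in CD8+ cells there by 1.75 ± 0.201 (adjusted p = 1.43e-06). In TILs the CD4+ and CD8+ libraries overlapped, at 4.04 to 25.8 CPM and 2.12 to 21.2 CPM, and the difference was 0.86 ± 0.377 (adjusted p = 0.247). CD45+ TILs were again lower than T-cell TILs, with a difference of -1.71 ± 0.357 (adjusted p = 2.85e-04).

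Tgfbr1, the signaling kinase receptor, varied widely between libraries of the same group. In WT CD4+ cells from TDLN it was at 59.1, 36.2, 60.5 and 94.1 CPM, and in Yap-cKO CD4+ TILs at 53.2, 42.9, 6.07 and 26.8 CPM. CD45+ cells from TDLN were at 19.1, 66.6, 38.4 and 30.5 CPM in WT and at 77.3, 61.6, 16.9 and 37.6 CPM in Yap-cKO mice. Every group overlapped with its neighbour in the order of levels. It was called in favour of CD45+ cells in the tumor, where CD45+ libraries were at 41.9, 62.0, 64.9 and 92.6 CPM in WT and at 58.2, 117.9, 103.9 and 79.7 CPM in Yap-cKO mice, with a difference from T cells of 1.59 ± 0.249 (adjusted p = 9.59e-06). In TDLN the same difference was -0.37 and was not called.

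Among the Smads, Smad7 and Smad4 were the more abundant in T cells from TDLN, at 94.1 to 122 TPM and up to 116 TPM in group means, whereas Smad3 stayed within 11.2 to 20.0 TPM over all TDLN groups. Smad7, the inhibitory Smad, was at 203.7, 235.3, 280.9 and 232.3 CPM in WT CD4+ cells and at 216.5, 245.2, 336.5 and 210.2 CPM in WT CD8+ cells from TDLN, against 85.2, 73.4, 128.2 and 104.8 CPM in the WT CD45+ cells. T cells were above CD45+ cells in every library of the lymph node. The difference of CD45+ cells from T cells was -1.31 ± 0.127 in TDLN (adjusted p = 5.45e-09) and -1.01 ± 0.336 in TILs (adjusted p = 0.0142). The latter lay near the fold threshold and was not called with a replicate block (-0.87) or transcript length offsets (-0.82). Smad4, the common partner of SMAD2 and SMAD3, differed between CD45+ and T cells from TDLN by -0.78 ± 0.126 (adjusted p = 1.38e-05), and Smad3, which carries the signal with SMAD2, by -0.67 ± 0.196 (adjusted p = 0.00681), both short of the 2-fold threshold. Smad2 was at -0.10 there and not called. In tumors Smad2 differed by 0.53 ± 0.144 (adjusted p = 0.00349) between CD45+ and T cells, again short of the fold threshold.

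Counted over the members, the comparison of CD45+ cells with T cells called Tgfb1 and Tgfb3 higher and Tgfbr3 and Smad7 lower in TDLN, 4 of 10, where 27.4% of all tested genes were called in either direction. In TILs it called Tgfb1 and Tgfbr1 higher and Tgfbr3 and Smad7 lower, 4 of 10 against 35.2% of all genes, or 3 of 10 with a replicate block, which lost Smad7. CD4+ against CD8+ cells called Tgfbr3 in TDLN, 1 of 10 against 6.14%, and no member in TILs, where 4.24% of genes were called and Tgfbr3 had an unadjusted p under 0.05, as did 16.2% of genes. DESeq2 also called none in TILs.

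The comparison of TILs with TDLN asked how the pathway's transcripts differed between cells sorted from the tumor and from the lymph node. In WT CD4+ cells 2 members were called higher in TILs and 6 lower, of 10 tested, where 37.3% of all genes were called, 22.9% higher and 14.4% lower. In WT CD8+ cells the counts were also 2 higher and 6 lower, where 37.7% were called, 22.5% higher and 15.2% lower. The median of the members was -1.16 in CD4+ and -1.21 in CD8+ cells, beside -0.03 and -0.02 over all tested genes. The 2 members called higher in each population were Tgfb2, by 3.88 ± 0.714 (adjusted p = 8.86e-04) in CD4+ and 2.78 ± 0.792 (adjusted p = 0.0141) in CD8+ cells, and Tgfb3, by 2.60 ± 0.423 (adjusted p = 3.61e-04) and 2.57 ± 0.570 (adjusted p = 0.00367). Tgfb2 reached the filter of 10 counts in 4 libraries through the TIL groups, since the WT T-cell libraries from TDLN held at most 13 counts, so its calls are a description and its values no bound on the fold. Tgfb2 was at 5.49 and 4.48 and Tgfb3 at 3.89 and 4.38 under the T-lineage scaling. That scaling called 56.3% of all genes higher and 0.864% lower in CD4+ cells, and 58.2% and 0.799% in CD8+ cells.

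In WT CD4+ TILs the members called lower than in TDLN were Tgfbr3, 13.7-fold (11.6 ± 4.43 against 168.3 ± 21.2 CPM, SD, n = 4), and Tgfbr2, 5.36-fold (153.7 ± 61.1 against 870.7 ± 240 CPM, SD, n = 4). Smad7 differed by -2.50 ± 0.413, Tgfbr1 by -1.57 ± 0.334, Smad4 by -1.31 ± 0.238 and Smad2 by -1.01 ± 0.213. Of these, Tgfbr3, Smad7 and Tgfbr2 were still called under the T-lineage scaling, at -2.51, -1.33 and -1.13, whereas Tgfbr1 came to -0.04 and Smad2 and Smad4 turned to 0.48 and 0.21. In WT CD8+ TILs the 6 members called lower were Tgfbr3 (-3.06 ± 0.434), Smad7 (-2.72 ± 0.447), Tgfbr2 (-2.35 ± 0.375), Smad3 (-1.56 ± 0.468), Tgfb1 (-1.30 ± 0.451) and Smad4 (-1.12 ± 0.245). Under the T-lineage scaling Smad7 was still called there, at -1.33, whereas Smad3 came to -0.12, Tgfbr3 (-1.49, adjusted p = 0.0533) and Tgfbr2 (-0.83) were not, and Tgfb1 and Smad4 turned to 0.23 and 0.50. The 15 T-lineage genes fell between the same libraries, from 8002 or more to at most 7942 CPM, and their part in these differences was not tested.

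In Yap-cKO T cells, whose TIL libraries held more T-lineage RNA, 4 of 9 members were called lower in CD4+ TILs (18.5% of all genes called, 12.4% higher and 6.07% lower) and 3 of 9 in CD8+ TILs (15.9% called, 10.9% higher and 5.01% lower), and none was called higher. Tgfbr3 differed by -3.57 ± 0.506 in CD4+ (adjusted p = 9.96e-04) and -2.40 ± 0.357 in CD8+ cells (adjusted p = 0.00111), and was still called in each under the T-lineage scaling. Tgfbr2 differed by -1.72 ± 0.354 (adjusted p = 0.00679) and -1.25 ± 0.313 (adjusted p = 0.0173), and Smad7 by -1.47 ± 0.417 (adjusted p = 0.0303) and -1.07 ± 0.343 (adjusted p = 0.0482). Smad4 was called in CD4+ cells, by -1.21 ± 0.341 (adjusted p = 0.0295). Under the T-lineage scaling Tgfbr2 remained called in CD4+ cells, and Smad7 and Smad4 in neither population. Tgfb3 was at 0.35 and 0.36 and was not called, and Tgfb2 was not tested because too few libraries passed the count filter.

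In CD45+ cells 3 of 9 members were called lower in WT TILs than in TDLN (39.9% of all genes called, 21.9% higher and 18% lower), and 1 higher and 3 lower in Yap-cKO TILs (40.3% called, 21.8% higher and 18.5% lower). Besides Tgfb3 the lower members were Tgfbr2, at -1.98 ± 0.306 in WT and -1.92 ± 0.193 in Yap-cKO mice, and Smad7, at -2.13 ± 0.356 and -1.39 ± 0.258. Tgfbr3 was the member called higher in Yap-cKO CD45+ TILs, by 1.69 ± 0.388 (3.28 against 0.963 CPM, adjusted p = 0.00345), whereas in WT it was at 0.34 and not called. The test of that difference, the interaction term given below, called no member in CD45+ cells. Tgfbr2 and Smad7 were thus called lower in TILs in all 6 combinations of cell type and genotype, although under the T-lineage scaling Tgfbr2 was not called in CD8+ cells of either genotype and Smad7 in Yap-cKO cells of either type.

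**Figure D2:**
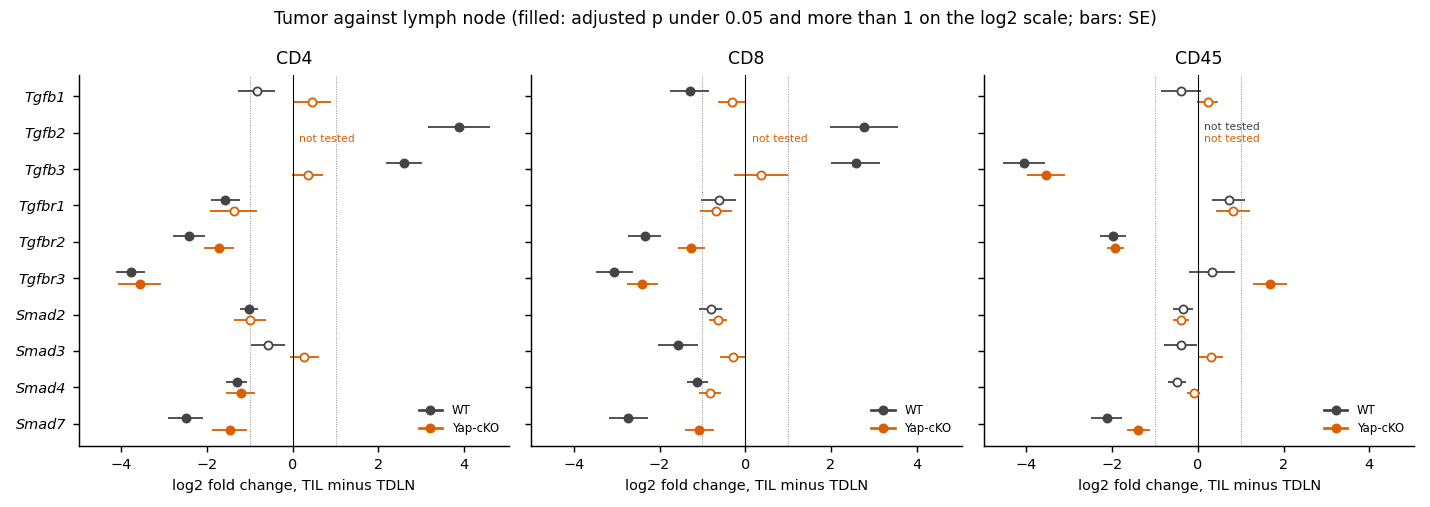
Difference between TILs and TDLN for each gene, as log2 fold change ± SE, in CD4+, CD8+ and CD45+ cells (dark, WT; orange, Yap-cKO; filled points passed the threshold, dotted lines mark a fold of 2). Tgfbr2 and Smad7 lie left of the line in all 6 combinations, Tgfbr3 in the T cells, and Tgfb2 and Tgfb3 lie far right in WT T cells. Under the T-lineage scaling 4 of 10 members change sign in WT CD4+ and 4 of 10 in WT CD8+ cells, Tgfbr2 and Smad7 not among them. That scaling shifts values upward here, so the ligands Tgfb2 and Tgfb3, already positive, could not change sign.

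The comparison of Yap-cKO with WT asked which members differed between the genotypes. It shares the WT TIL libraries with the comparison of tissues, so the values of Tgfb2 and Tgfb3 in the 2 comparisons are not independent. Yap1, the deleted gene, was at 25.4, 20.5, 14.2 and 18.1 CPM in WT CD4+ TILs and at 1.71, 3.03, 5.70 and 2.48 CPM in Yap-cKO CD4+ TILs. Over all TDLN libraries it ranged from 1.10 to 4.36 CPM. Its means there were 1.68 (WT) and 1.91 CPM (Yap-cKO) in CD4+ cells and 2.3 and 2.2 CPM in CD8+ cells. In CD45+ TILs, not the targeted cells, they were 4.23 and 1.86 CPM. Yap1 was high only in the WT T-cell TIL libraries, which also held the most melanoma RNA. The part of that RNA in its difference was not tested. In CD4+ TILs 2 of 10 members were called, both lower in Yap-cKO, where 8.02% of all genes were called, 6.66% lower and 1.36% higher. Tgfb2 differed by -3.70 ± 0.695 (12.97-fold, 0.222 ± 0.177 against 2.98 ± 0.714 CPM, SD, n = 4, edgeR adjusted p = 0.0132). It passed the filter of 10 counts in 4 libraries only through the WT group, where it was high, so its entry into the test and its direction were tied and its call is a description; transcript length offsets also lost the call (-3.07, adjusted p = 0.0502). Tgfb3 differed by -2.09 ± 0.414 (4.27-fold, 3.53 ± 0.641 against 14.9 ± 6.83 CPM, SD, n = 4, edgeR adjusted p = 0.0149). They were at -5.10 and -3.01 and still called under the T-lineage scaling, which called 24% of all genes lower and 0.12% higher. Y-linked expression was over 25 CPM in 18 libraries, all of WT replicates 1 to 3, and in 0 Yap-cKO libraries of any population. It was thus largely tied to genotype in every comparison of genotypes, and the 2 cannot be told apart. With it as a covariate neither Tgfb2 nor Tgfb3 was called, at -3.44 (edgeR adjusted p = 0.208) and -1.85 (edgeR adjusted p = 0.356). Over all genes that fit called 0 higher and 2 lower in CD4+ TILs, and 0 and 1 in CD8+ TILs, so a lost call cannot be read.

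The other 8 members were not called in CD4+ TILs. Smad7 was at 11.5, 42.5, 66.5 and 39.2 CPM in WT and at 192.5, 96.9, 79.6 and 42.6 CPM in Yap-cKO libraries, with a difference of 1.33 ± 0.537 (adjusted p = 0.157), or 0.57 under the T-lineage scaling. The 8 values lay between 0.17 and 1.33, all above 0, and 6 of the 10 members changed sign under the T-lineage scaling. WT replicate 1 had the lowest Tgfb1, Tgfbr2, Smad3 and Smad7 of the WT CD4+ TIL libraries and also the lowest T-lineage sum, at 2049 CPM.

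In CD8+ TILs none of the 10 members was called, where 12.2% of all genes were, 3.03% higher and 9.14% lower. An unadjusted p under 0.05 was reached by 6 members, beside 33.9% of all genes, and DESeq2 called 4, beside 18.2%. Those 4 were Tgfb2 (-2.33), Tgfb3 (-1.92), Smad7 (1.45) and Tgfbr2 (1.19). In edgeR Tgfb2 differed by -2.27 ± 0.678 (adjusted p = 0.0514), Tgfb3 by -1.86 ± 0.664 (adjusted p = 0.0826), Smad7 by 1.47 ± 0.516 (adjusted p = 0.0798) and Tgfbr2 by 1.22 ± 0.404 (adjusted p = 0.0686). The filter was again met by the WT group alone for Tgfb2. Tgfb2 and Tgfb3 were called under the T-lineage scaling, at -3.55 and -3.14, whereas Smad7 and Tgfbr2 were at 0.57 and 0.18 and not called. That scaling called 39.4% of all genes lower and 0.0425% higher. Smad2 was at 33.6, 46.4, 32.8 and 35.4 CPM in WT and at 68.8, 54.8, 51.0 and 49.8 CPM in Yap-cKO CD8+ TILs, without overlap, at 0.51 ± 0.197 (adjusted p = 0.101), and it turned to -0.72 under the T-lineage scaling. Tgfb2 and Smad2 thus did not overlap between genotypes in CD8+ TILs, 2 of 10 members beside 21.8% of all genes, and in CD4+ TILs the 2 members without overlap were Tgfb2 and Tgfb3, beside 17.1%.

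In CD45+ TILs, whose cells are not the targeted ones, none of 10 members was called, where 0.991% of genes were, and 3 members had an unadjusted p under 0.05, beside 17.8% of genes. Smad4 was at 76.6, 107, 83.8 and 88.2 CPM in WT and at 120.6, 125.4, 128.5 and 112.1 CPM in Yap-cKO libraries, without overlap (1 of 10 members, beside 11.6% of all genes), at 0.44 ± 0.138 (adjusted p = 0.148). In TDLN none of 9 members was called in CD4+, CD8+ or CD45+ cells, where 0.0462%, 0.0158% and 0.0596% of genes were called, and 0, 0 and 1 member had an unadjusted p under 0.05. That member was Tgfbr3 in CD45+ cells, at -1.10 ± 0.439, where 2.91% of genes had such a p. DESeq2 called no member in CD45+ TILs or in TDLN either.

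**Figure D3:**
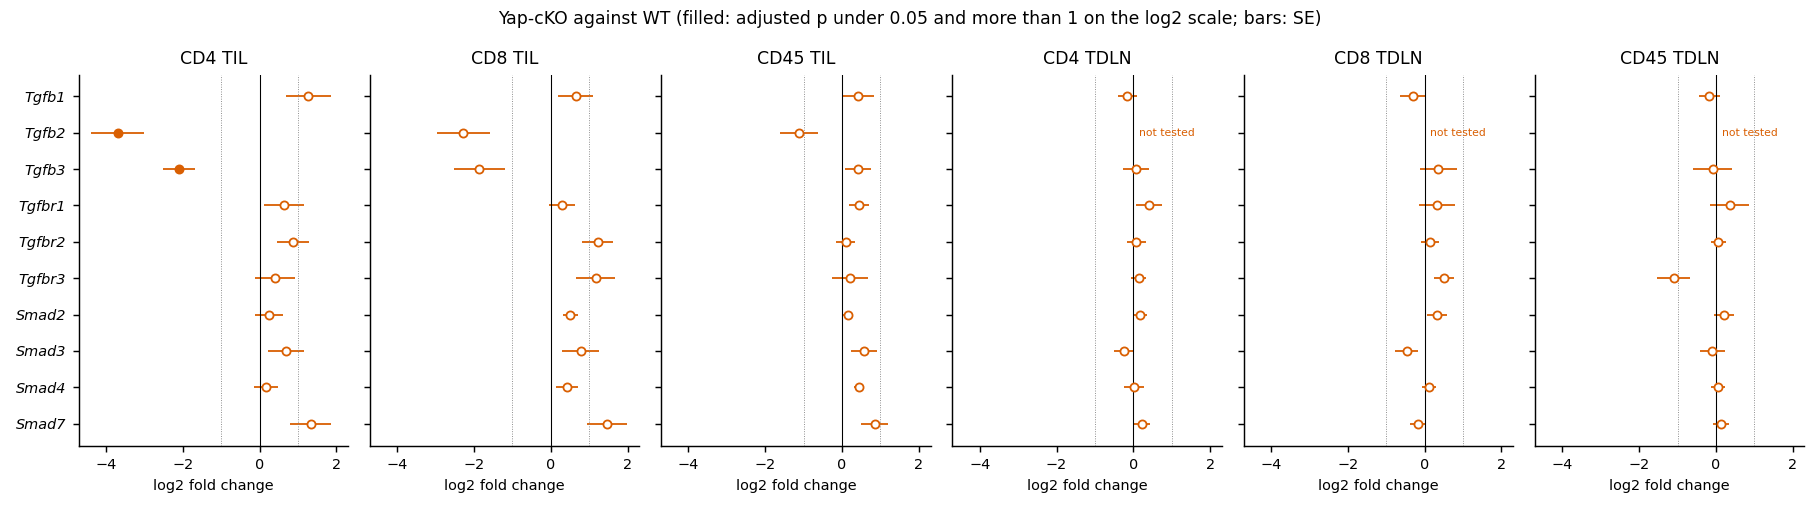
Difference between Yap-cKO and WT for each gene, as log2 fold change ± SE, in the 3 cell types of each tissue (filled points passed the threshold, dotted lines mark a fold of 2, and Tgfb2 was not tested in TDLN). Tgfb2 and Tgfb3 in CD4+ TILs are the 2 filled points, and all TDLN points of CD4+ and CD8+ cells lie within the dotted lines. Under the T-lineage scaling 6 of 10 members change sign in CD4+ TILs and 6 of 10 in CD8+ TILs. That scaling shifts values downward here, so Tgfb2 and Tgfb3, already negative, could not change sign.

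Whether the genotype difference depended on tissue was tested by an interaction term. In CD4+ cells Tgfb3 was the 1 member called, at -2.17 ± 0.517 (adjusted p = 0.0480), where 1.36% of genes were called, and Tgfb2 was at -3.83 ± 1.204 (adjusted p = 0.122). The Tgfb3 call was lost with a replicate block (-2.11, adjusted p = 0.134) and kept in 3 of 16 fits that each left out 1 library. In CD8+ cells none was called (0.422% of genes), and Tgfb3 was at -2.24 ± 0.871 (adjusted p = 0.236) with 3 members at an unadjusted p under 0.05, beside 15.6% of genes. In CD45+ cells neither a member nor any gene was called (0%), and no member had an unadjusted p under 0.05. DESeq2 also called no member in CD8+ or CD45+ cells.

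Several lists of non-T genes differed between the genotypes in the same T-cell TIL libraries in which Tgfb2 and Tgfb3 differed. In CD4+ TILs the melanoma sum was 11060 ± 5130 CPM for the WT and 1147 ± 974 CPM for the Yap-cKO libraries, with 11 of 11 genes detected in each. The sum of 10 fibroblast and pericyte genes was 400.6 ± 209.2 CPM in WT, with 9 over 3 counts in some library and Pdgfra not, and 36.7 ± 37.6 CPM in Yap-cKO, with 10 of 10. The sum of 11 endothelial genes was 373.8 ± 127.4 and 127 ± 39.7 CPM, with 11 detected in each. For all 3 the exact permutation test over 4 against 4 libraries gave 0.0286, the smallest two-sided p it can give, and 0.0857 after adjustment. In CD8+ TILs the same sums were 10120 against 1147 CPM, 324.3 against 13.99 CPM and 773.2 against 79.7 CPM. Other lists ran higher in Yap-cKO CD8+ TILs. The sum of 10 macrophage and monocyte genes was 442.1 ± 163.1 CPM for the WT and 1426 ± 705 CPM for the Yap-cKO libraries, with 10 detected in each and the same exact permutation p of 0.0286 (0.0857 after adjustment). Sums of 5 platelet genes (36.5 against 101.3 CPM) and 5 NK-cell genes (24.8 against 58.0 CPM) had an exact permutation p of 0.0857 each. In CD4+ TILs the macrophage and monocyte sum was 470.9 against 254.2 CPM (exact permutation p = 0.171). In TDLN the fibroblast and pericyte sum was 0.549 to 7.33 CPM over 24 libraries. WT CD8+ TIL replicate 2 had the highest endothelial sum (2071 CPM) and the highest fibroblast and pericyte sum (877.9 CPM) of all T-cell TIL libraries, and also the highest Tgfb2 and Tgfb3 of its group. WT CD4+ TIL replicate 3 had the highest fibroblast and pericyte sum of its group (660.7 CPM), with the lowest Tgfb2 and the highest Tgfb3. In WT CD4+ TILs Tgfb2 ran in the order of the melanoma sums (17240, 13080, 5722 and 8191 CPM). In WT CD8+ TILs it did not (14020, 10640, 3983 and 11860 CPM). The part of these cells' RNA in the differences of Tgfb2 and Tgfb3 was not tested.

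**Figure D4:**
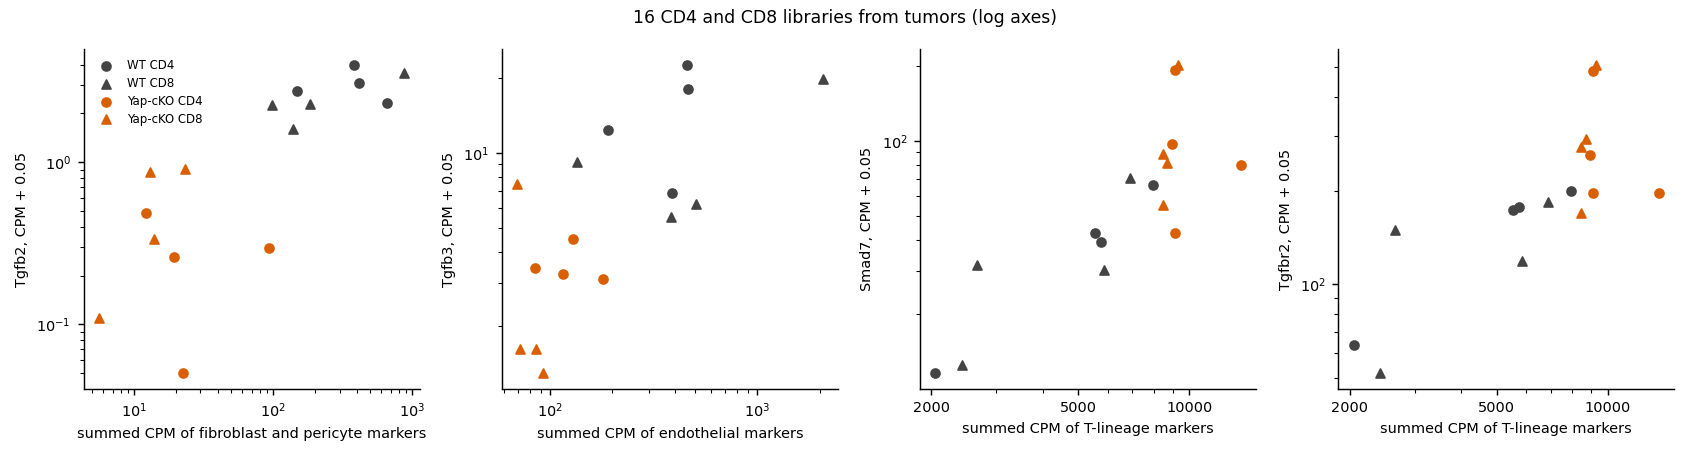
Levels of Tgfb2, Tgfb3, Smad7 and Tgfbr2 in the 16 T-cell TIL libraries against summed marker levels, all as CPM on log axes (circles, CD4+; triangles, CD8+; dark, WT; orange, Yap-cKO). Tgfb2 is plotted against 10 fibroblast and pericyte genes, Tgfb3 against 11 endothelial genes, and Smad7 and Tgfbr2 against 15 T-lineage genes. All 8 WT libraries lie above the Yap-cKO libraries in Tgfb2 and, in fibroblast and pericyte sum, at 97.87 CPM or more against at most 92.73 CPM, whereas the genotypes overlap in Tgfb3 and in endothelial sum. The T-lineage sum is at most 7942 CPM in WT and at least 8456 CPM in Yap-cKO libraries.

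Across the 12 group means, the correlation of each member with each marker sum described the same split, and it is given without a test because the points share libraries of the same sorts and their depth. Tgfb2 correlated with the fibroblast and pericyte sum (Pearson's r = 0.91) and the melanoma sum (r = 0.86), and not with the T-lineage sum (r = 0.02). Tgfb1 correlated with the B-cell sum (r = 0.85) and inversely with the T-lineage sum (r = -0.71). Within the CD45+ groups it did not follow the B-cell sum. Tgfb1 averaged 361.9 CPM in Yap-cKO CD45+ TILs, with B-cell sums of 220.3 to 915.8 CPM. In Yap-cKO CD45+ cells from TDLN it averaged 295 CPM, with B-cell sums of 8459 to 10070 CPM. Tgfb3 correlated with the B-cell sum (r = 0.66) and the endothelial sum (r = 0.63), and inversely with the T-lineage sum (r = -0.63). The endothelial sum is no plain measure of endothelial cells over these groups. It was 89.42 to 351.9 CPM in TDLN libraries, where Tek of its list was at or under 3 counts in every group. In Yap-cKO T-cell TILs, with 11 of 11 genes detected, it was 69.22 to 179.6 CPM. Tgfbr3 had the highest correlation with the T-lineage sum of the 10 members (r = 0.83), followed by Smad7 (r = 0.63), Smad3 (r = 0.50) and Smad4 (r = 0.43). Tgfbr2 and Smad2 were set mainly against the melanoma sum (r = -0.96 and -0.92), with T-lineage values of 0.34 and -0.04. Tgfbr1 had no correlation beyond 0.49 in size with the lists named here.

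**Figure D5:**
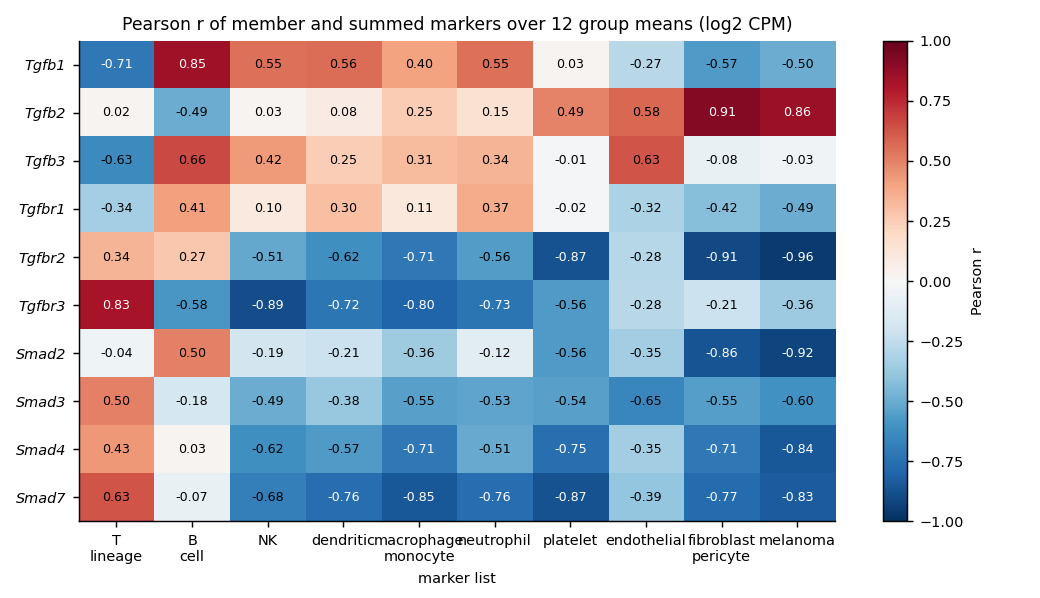
Pearson's r over 12 group means between the log2 level of each of the 10 genes and the log2 sum of each marker list. Tgfb2 is highest with the fibroblast and pericyte and melanoma lists, Tgfb1 with the B-cell list, and Tgfbr3 and Smad7 with the T-lineage list, whereas Tgfbr2 and Smad2 are most negative with the melanoma list. Within the CD45+ groups alone Tgfb1 did not follow the B-cell list.

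The genes whose group means followed each member most closely were sought among 12290 genes over the same 12 groups. Nearest to Tgfb2 were Afap1l2 (r = 0.988), Kank1 and Nr2f2. Among the nearest to Tgfb1 were Flii (r = 0.991) and Acox3, and nearest to Tgfb3 were Zfp316 (r = 0.960), 1700030K09Rik and Hs3st1. The nearest to Tgfbr2 were Herpud2 (r = 0.991), Epc1 and Naa30, to Tgfbr3 Znrf1 (r = 0.981), Bambi-ps1 and Scg5, and to Tgfbr1 Tmem131 (r = 0.961), Spop and Abi1. Nearest to Smad2 was Hbp1 (r = 0.985), to Smad3 Tnip1 (r = 0.978), to Smad4 Numb (r = 0.985) and to Smad7 Slc35e2 (r = 0.990).

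Genes around the members were read from 4 lists, 58 genes in all, on latency and activation of the ligands, on the related BMP and activin pathways, on negative regulators and on known targets. Between Yap-cKO and WT CD4+ TILs, where 1.36% of all genes were called higher and 6.66% lower, the latency list had 1 gene called higher and 5 lower of 12 tested, with a median of 0.63 beside 0.14 over all genes. Lower were Fbn1 (-4.55), a microfibril protein that anchors latent ligand, Mmp14 (-3.18), Ltbp4 (-2.77), a latent TGF-beta binding protein, and Thbs1 (-2.27), and higher was Itgb8 (2.43), a subunit of an integrin that activates the ligands, which was at 1.48 and no longer called under the T-lineage scaling. The BMP and activin list had 0 higher and 2 lower of 12 (Acvr1 and Smad5, median -1.26), the negative regulators 0 of 13, and the targets 2 higher (Itgae and Foxp3, at 1.28 and 0.67 and not called under the T-lineage scaling) and 1 lower of 12 (Id1, -2.35). Under the T-lineage scaling, which called 0.12% of all genes higher and 24% lower, the 4 lists had 0 genes higher and 5, 7, 3 and 5 lower. In CD8+ TILs, where 3.03% of all genes were called higher and 9.14% lower, 6 of 12, 7 of 13, 0 of 13 and 2 of 12 were called lower in the 4 lists, with medians of -1.45, -1.78, 0.28 and -0.06 beside 0.08 over all genes, and Itgae was the 1 gene called higher (1.90, at 1.05 and not called under the T-lineage scaling). That scaling called 0.0425% of all genes higher and 39.4% lower, and in the 4 lists 0 higher and 6, 10, 3 and 5 lower. The largest difference in CD8+ TILs was in Ccn2, a matricellular protein that TGF-beta and Yap both induce in fibroblasts. It was at 0.491 ± 0.345 CPM in Yap-cKO against 96.9 ± 112.5 CPM in WT libraries (SD, n = 4). The WT libraries of both T-cell populations also held more fibroblast and pericyte, endothelial and melanoma RNA. The part of that RNA in the differences of these lists was not tested. In CD45+ TILs Ccn2 was the 1 gene of the 4 lists that was called, at -2.57, and in TDLN none was in any cell type.

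Between WT TILs and TDLN the list of negative regulators, like Smad7, had more genes called lower than higher, with medians of -1.24 in CD4+ and -1.51 in CD8+ cells beside -0.03 and -0.02 over all genes. All genes were called higher and lower in shares of 22.9% and 14.4% in CD4+ and 22.5% and 15.2% in CD8+ cells. In CD4+ cells 8 of 14 were called lower and 0 higher, with Tgif1 (-2.36) and Skil (-2.30) and Ski (-2.13), co-repressors of Smad complexes, among them, and in CD8+ cells 9 were lower and 2 higher (Smad6, 3.65, another inhibitory Smad, and Fkbp1a, 1.10). Under the T-lineage scaling 1 of the list was called lower in each population and 2 and 3 higher. Of all genes 56.3% and 58.2% were then called higher and 0.864% and 0.799% lower. The list medians under that scaling were 0.13 and -0.02 beside 1.55 and 1.59 over all genes. The scaling shifts all genes of a library together, so it cannot test the place of the list among them. The latency list had 5 of 12 called higher and 0 lower in CD4+ cells, and 8 higher and 1 lower in CD8+ cells, the latter Furin (-1.03, which turned to 0.54 under the T-lineage scaling). The BMP and activin list had 6 higher and 1 lower of 11 in CD4+ and 9 higher and 1 lower of 13 in CD8+ cells. The targets had 5 higher and 2 lower in CD4+ cells and 7 higher and 2 lower in CD8+ cells. The same scaling gave 9 higher and 0 lower for the latency list in each population, 7 and 11 higher and 0 lower for BMP and activin, and 9 higher in each for the targets, with 0 lower in CD4+ and 1 lower in CD8+ cells. Among the targets Itgae, the alpha E integrin of resident T cells, was lower in both (-1.98, which came to -0.70 and was not called under the T-lineage scaling, and -4.33), and Tgfbi, an extracellular matrix protein, higher by 4.62 and 4.24. Tgfbi averaged 15.07 CPM in WT CD4+ and 18.3 CPM in WT CD8+ TILs, and 1900 CPM in CD45+ TILs. The macrophage and monocyte sum was 254.6 to 696.6 CPM in WT T-cell TILs and 8.05 to 40.4 CPM in T cells from TDLN. The fibroblast and pericyte sum was 97.87 to 877.9 CPM and 2.40 to 7.33 CPM in the same libraries. The part of such RNA in the differences of these lists was not tested. Between CD4+ and CD8+ cells from TDLN the genes called higher in CD4+ were Lrrc32 (6.00), which holds latent TGF-beta on regulatory T cells, Itgb8 (4.84), Itgb3 (2.72), Acvrl1 (2.18) and Foxp3 (6.02), and those lower were Eng (-4.70) and Itgae (-1.95). Lrrc32, Itgb8 and Itgb3 were also higher in CD4+ than in CD8+ TILs, by 3.68, 2.75 and 1.78, where 4.24% of all genes were called in either direction. Under the T-lineage scaling Itgb8 (2.44) and Itgb3 (1.30) were no longer called there.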

How the data were processed

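RNA from each sort was made into SMART-Seq v4 libraries and read as paired ends. The deposited files hold, per transcript, estimated counts, TPM and effective length from Salmon 0.9.1 (processing notes name FastQC, Trimmomatic and mm10); the authors did not pool replicates, and the annotation release is not given in the sources used here. The libraries carry no molecular identifiers, so counts are not independent molecules. Transcripts were matched to GENCODE M21 (111787 of 112092; 0.0488 to 0.18% of counts per library unmatched) and summed by gene. Counts were rounded for edgeR 4.0.16 in R 4.3.3. CPM are TMM-normalised over 48 libraries, and TPM are sums of the deposited values. 0 library pairs were identical.

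Each comparison was fitted on its own libraries with edgeR's quasi-likelihood test, on genes that reached 10 counts in 4 or more of them. CD45+ against T cells and CD4+ against CD8+ used 24 libraries of a tissue with genotype as a term, and the interaction 16. A gene was called at a Benjamini-Hochberg adjusted p under 0.05 over all tested genes and an absolute log2 fold change above 1. Marker sums were compared by exact two-sided permutation tests. The members and all gene lists were chosen with earlier results of these data known. All members are named, with at most 4 called genes per pathway list and direction by size of fold change, up to 3 genes nearest to each member (1 is not reported here) by Pearson's r of mean log2(CPM + 0.5), among genes of at least 5 CPM in some group, and Yap1. Alternatives were DESeq2 1.42.0 (the study's own test), transcript length offsets, no count filter, adjusted p alone, a replicate block, a Y-linked covariate, T-lineage scaling and each library left out. The fits were tested on simulated data. Replicate numbers paired CD4+ with CD8+ TILs: every same-numbered pair deviated together over genes, with r of 0.10 to 0.71 in WT and 0.15 to 0.61 in Yap-cKO mice. Promoters were read from RefSeq (GRCm38.p6).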

Additional observations from a re-analysis of the deposited data

Results flagged for a closer look

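In groups of 4 libraries, 5 of 120 combinations of member and group (4.17%) had a highest or lowest library farther from the rest than Dixon's 95% limit, and chance flags about 1 in 20. Tgfb3 was at 7.43 CPM in Yap-cKO CD8+ TIL replicate 2, above the rest of its group, and Tgfb2 at 0.749 CPM in Yap-cKO CD8+ TDLN replicate 3. Tgfbr1 was at 72.2 CPM in WT CD8+ TDLN replicate 4, above its group. Tgfbr3 was at 5.07 CPM in WT CD4+ TIL replicate 1 and Smad7 at 22.6 CPM in Yap-cKO CD45+ TIL replicate 4, each below its group. The interaction of genotype and tissue for Tgfb3 in CD4+ cells passed the threshold, at -2.17 ± 0.517 on the log2 scale (edgeR adjusted p = 0.0480), but not with a replicate block (-2.11, adjusted p = 0.134), and it was kept in 3 of 16 fits that each left out 1 library.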

How the results depend on the processing

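Scaling on T-lineage genes moved most counts of called members: to 2 in CD8+ TILs between genotypes, to 5 in WT CD4+, 3 in WT CD8+, 2 in Yap-cKO CD4+ and 1 in Yap-cKO CD8+ cells between tissues, and to 2 (CD4+) and 1 (CD8+) for the interaction. Of all genes it called 0.0425% higher and 39.4% lower in CD8+ TILs between genotypes. Between tissues it called 56.3% higher and 0.864% lower in WT CD4+ and 58.2% and 0.799% in WT CD8+ cells. It called 2365 higher and 395 lower of 13565 genes in Yap-cKO CD4+ and 2075 and 209 of 13347 in Yap-cKO CD8+ cells. For the interaction it called 6 and 1809 of 15087 (CD4+) and 5 and 2829 of 14937 (CD8+). The T-lineage scaling turned Smad2 (0.48) and Smad4 (0.21) in WT CD4+ and Tgfb1 (0.23) and Smad4 (0.50) in WT CD8+ cells between tissues. The cause was not tested. DESeq2 called 4 members in CD8+ TILs between genotypes, beside 18.2% of all genes. It called 2 for the CD4+ interaction, beside 171 genes higher and 671 lower of 15087. Transcript length offsets gave 1 call in CD4+ and 1 in CD8+ TILs, with Tgfb2 at -3.07 (adjusted p = 0.0502) in CD4+ TILs, and the Y-linked covariate gave 0 in CD4+ TILs. Over all genes the offsets called 182 higher and 881 lower of 14205 in CD4+ and 376 and 1201 of 14121 in CD8+ TILs.

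With each library left out, called members ranged from 0 to 2 in CD4+ and 0 to 3 in CD8+ TILs between genotypes, 2 to 4 in Yap-cKO CD4+ and 1 to 4 in Yap-cKO CD8+ cells between tissues, 1 to 2 for CD4+ against CD8+ in TDLN, and 0 to 1 for each T-cell interaction. Members were called in CD8+ TILs without WT replicate 3 or Yap-cKO replicate 3, for CD4+ against CD8+ cells another member without WT CD8+ TDLN replicate 4, and for the CD8+ interaction without WT CD8+ TIL replicate 3. The ranges were 7 to 8 (WT CD4+), 6 to 8 (WT CD8+), 3 to 4 (WT CD45+) and 4 to 5 (Yap-cKO CD45+) between tissues, and 4 (TDLN) and 3 to 4 (TILs) for CD45+ against T cells. Both calls in CD4+ TILs were kept in 2 of 8 such fits. Tgfb3 ranged from -2.39 to -1.91 and was lost without WT CD4+ TIL replicate 2, Yap-cKO replicate 2 or Yap-cKO replicate 4. Tgfb2 could be tested only without a Yap-cKO library (-4.20 to -3.29), since leaving out a WT library put it under the count filter. The Tgfb3 interaction was kept in 3 of 16 fits. Smad7 was kept in 2 of 8 fits in Yap-cKO CD4+ and 1 of 8 in Yap-cKO CD8+ cells between tissues, Tgfb1 in 2 of 8 in WT CD8+ cells.

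A replicate block kept the count of members called within 1.5 times in 18 of 19 comparisons, and the exception was the CD4+ interaction, where it was 0 (Tgfb3 -2.11, adjusted p = 0.134). With it Smad7 between CD45+ and T-cell TILs came to -0.87. Same-numbered libraries deviated together in 0 of 6 genotype, 0 of 6 tissue and 5 of 12 cell-type comparisons. Between genotypes in CD4+ TILs it called 91 genes higher and 676 lower, against 193 and 946 without it. DESeq2 called 582 and 1546 there, the T-lineage scaling 17 and 3413, and the Y-linked covariate 0 and 2. In CD8+ TILs the main test called 428 and 1291, DESeq2 800 and 1772, the block 0 and 1, and the T-lineage scaling 6 and 5568. Depth limits Tgfb2, with at most 16 counts in any TDLN library.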

Other observations

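The share of each member's TPM held by its leading transcript was steady for some members and not for others. Tgfb3 has 1 transcript in the annotation used. Tgfbr2 was split between Tgfbr2-201, at 66.0 to 71.5% over the 12 groups, and Tgfbr2-202, at 28.6 to 34.0%, although its level differed several-fold between the tissues. Tgfb1-201 held 65.3 to 86.9% of Tgfb1, Smad4-201 79.8 to 89.9% of Smad4, Smad3-201 71.0 to 88.7% of Smad3 and Smad7-201 68.2 to 88.4% of Smad7. Tgfbr3-201 ranged from 38.8 to 88.3%. The estimates divide reads between transcripts that share exons, so a share at low counts is uncertain.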
